A study of Mus musculus with 15 samples.

Results

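Heat shock proteins and their J-domain partners, the DNAJ co-chaperones, were followed in cerebral vessels of mice by bulk RNA sequencing. Members were the genes of the expression table whose symbol begins with Hspa, Hspb, Hspd, Hspe or Hsph and a digit, with Hsp90, or with Dnaja, Dnajb or Dnajc and a digit. This rule found 76 of 22526 gene symbols, 31 heat shock protein genes and 45 DNAJ genes. From textbook knowledge they were placed in 9 heat-inducible cytosolic members, 20 mainly constitutive cytosolic members, 8 mitochondrial members, 13 members of the endoplasmic reticulum (ER), 5 further small heat shock proteins, 3 nuclear members, 6 members known from testis or cilia, 6 pseudogenes and 6 DNAJC members left unplaced. These classes, like the other gene lists used below, were set with earlier results of these data known. Differences between classes are therefore descriptive.

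Chaperones of the HSP70 family bind unfolded stretches of other proteins and release them in a cycle driven by ATP. J-domain proteins deliver clients to HSP70 and start the ATP step, HSP110 proteins exchange the nucleotide, and HSP90 takes over late folding of kinases, steroid receptors and, in endothelial cells, the nitric oxide synthase. After heat or other protein damage the factor HSF1 raises the inducible cytosolic members by binding heat shock elements, repeats of the unit GAA in alternating orientation. The ER has its own set, led by Hspa5 (BiP) and Hsp90b1 (GRP94), which the unfolded protein response raises through the ER stress element, and mitochondria fold imported proteins with Hspa9 (mortalin) and the Hspd1 and Hspe1 chaperonin (HSP60 and HSP10).

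The vessels came from wild type C57BL/6 mice aged 8 months, in 3 groups of 5 libraries, all injected stereotactically with an adeno-associated virus (AAV). GFP-Veh mice received AAV-GFP and saline, GFP-AL mice received AAV-GFP and angiotensin II (AngII, a vasoconstrictor peptide) plus L-NAME (an inhibitor of nitric oxide synthases), and LH3-AL mice received AAV-LH3 and the same 2 agents. LH3 is a lysyl hydroxylase of collagens, encoded by Plod3, and no group combined AAV-LH3 with saline. The labels leave unstated the virus promoter, the doses and durations, and whether each library is 1 mouse. The p-values therefore measure only the spread between these libraries.

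Estimated depth ran from 13.6 to 29.8 M (mega) fragments in GFP-Veh, from 21.1 to 27.8 M fragments in GFP-AL and from 18.0 to 31.6 M fragments in LH3-AL. Plod3 had a mean of 16.8 ± 0.62 FPKM (fragments per kilobase of transcript, scaled to library size; SD, n = 5) in GFP-Veh. GFP-AL libraries had 13.9 ± 1.09 FPKM of Plod3, and LH3-AL libraries had 21.6 ± 1.46 FPKM and did not overlap the other groups. Endothelial markers were present in all 15 libraries, with Cldn5 between 758 and 1740 FPKM and Cdh5 between 153 and 383, but the choroid plexus gene Ttr was also present at 1950 to 9070 FPKM. Because whole vessel preparations were sequenced, fewer cells of a type and less RNA per cell cannot be told apart. GFP-AL replicates 2 and 3 lay farthest from the others on the first principal component of all genes (49.4 and 58, against 19.8 to 27.9 for the other GFP-AL libraries). GFP-Veh replicate 2, at -4.1, stood apart only from its own group, whose other libraries lay from -27.1 to -19.3. It lay near LH3-AL replicate 5 (-6.4) and below every GFP-AL library. Counts without these 3 libraries are given below beside the results they touch.

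Promoters were searched for both elements because the inducible and ER members are known targets of different factors. RefSeq promoters (GRCm38.p6, 250 bases before to 50 bases after an annotated start) were found for 56 of the 76 members, 73 promoters in all. The 2-unit heat shock element was GAA then TTC, or TTC then GAA, with any 2 bases between. The 3-unit element was GAA, TTC and GAA, each separated by any 2 bases, and contains the 2-unit one. The ER stress element was CCAAT and CCACG with any 9 bases between. All were searched on both strands. The sequences below show the matches upstream of the start in members on which the results turn, 5′ to 3′ on the gene's strand, with the match in capitals.
Hspa1a, chr17:34972233-34972280, minus strand: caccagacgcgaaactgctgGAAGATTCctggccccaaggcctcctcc
Hspa1b, chr17:34959315-34959362, minus strand: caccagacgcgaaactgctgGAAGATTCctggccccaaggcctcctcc
Dnaja1, chr4:40722324-40722371, plus strand: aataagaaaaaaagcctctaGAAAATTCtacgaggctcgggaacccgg
Hspb1, chr5:135887782-135887849, plus strand: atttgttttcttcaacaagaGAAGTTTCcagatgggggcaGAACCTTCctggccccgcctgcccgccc
Dnaja4, chr9:54699464-54699519, plus strand: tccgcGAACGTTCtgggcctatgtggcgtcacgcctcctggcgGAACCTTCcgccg
Hsph1, chr5:149636357-149636374, minus strand: aatctTTCTCGAAggctc
Dnajb4, chr3:152193847-152193864, minus strand: cgctgTTCTAGAAagtac
Hspe1, chr1:55088054-55088081, plus strand: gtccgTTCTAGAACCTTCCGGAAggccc
Hspa5, chr2:34772020-34772048, plus strand: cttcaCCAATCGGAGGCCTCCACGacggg
Hsp90b1, chr10:86705513-86705676, minus strand: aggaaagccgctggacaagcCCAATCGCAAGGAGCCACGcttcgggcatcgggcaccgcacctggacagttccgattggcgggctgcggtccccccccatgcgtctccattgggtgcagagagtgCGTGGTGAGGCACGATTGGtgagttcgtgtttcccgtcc
Dnajc3, chr14:118937807-118937865, plus strand: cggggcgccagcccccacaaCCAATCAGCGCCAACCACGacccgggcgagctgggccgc

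The stretches of Hspa1a and Hspa1b are identical, base for base, and the element lies at the same place in both, from -104 to -97 relative to the start. At least one 2-unit element was present in 7 of 8 inducible members with a promoter (87.5%), in 15 of all 56 members (26.8%) and in 17.0% of all 27025 genes in the RefSeq table. The inducible member without it was Dnajb1. The 2-unit element was not particular to the inducible class. It was also present in 3 of 4 further small heat shock proteins with a promoter (Hspb3, Hspb6 and Hspb8). Of the other classes, 2 of 5 mitochondrial, 2 of 16 constitutive cytosolic and 1 of 12 ER members with a promoter carried it. The 3-unit element was found at Hspd1, Hspe1, Dnajb6 and Hsph1, 4 of 56 members (7.14%), against 0.662% of all genes. Hspd1 and Hspe1 are read away from each other and share the same element, in a stretch that GENCODE counts as untranslated first exon of an Hspd1 transcript. The ER stress element was found at Hspa5, Hsp90b1 and Dnajc3, 3 of 12 ER members with a promoter (25.0%), at no other member, and at 0.137% of all genes. The stretch of Hsph1 lies in an untranslated exon of an Hsph1 transcript in GENCODE. The stretch of Hspa5 lies in the first untranslated exon of a GENCODE transcript that starts further upstream, and that of Dnaja1 in an exon of a noncoding Dnaja1 transcript and of Gm6297 on the opposite strand. These matches are descriptions of the sequence, not measured binding sites.

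**Figure D1:**
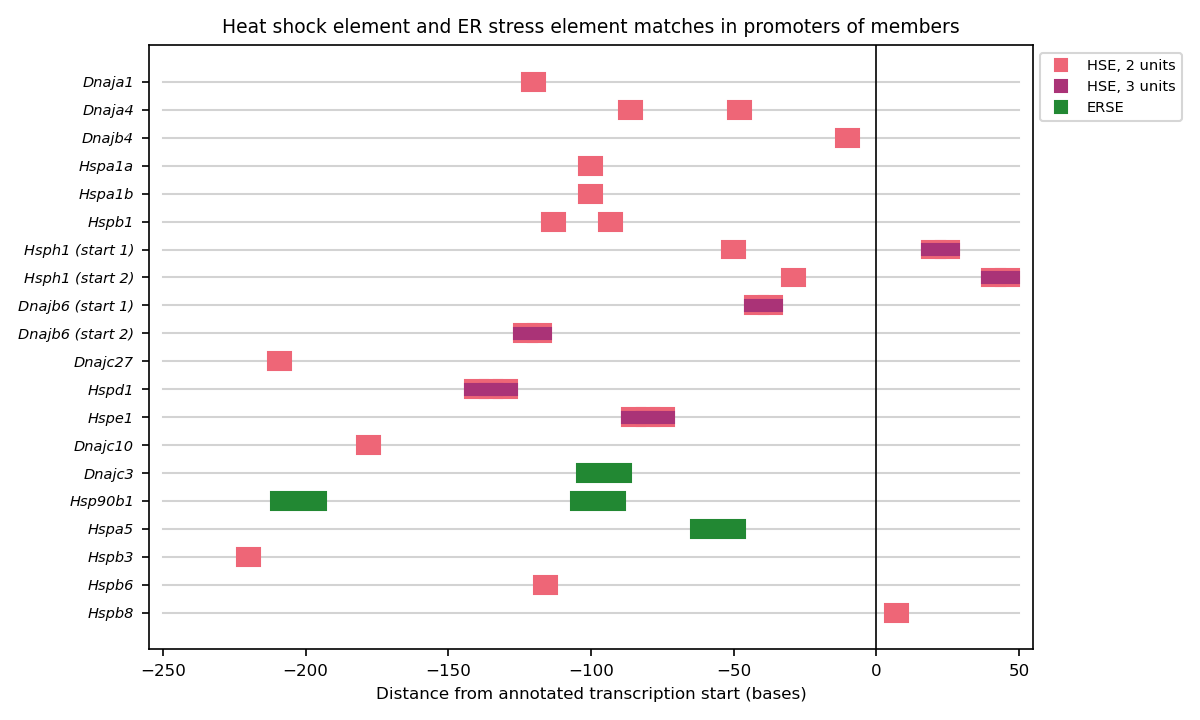
Matches to the heat shock element with 2 units (pink) or 3 units (purple) and to the ER stress element (ERSE, green) in promoters of members with a match, by distance in bases from the annotated start (vertical line). Rows run from inducible (top) through constitutive, mitochondrial and ER members to the small heat shock proteins; Hspa1a and Hspa1b carry the 2-unit element at the same distance, and green boxes appear at Dnajc3, Hsp90b1 and Hspa5.

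The first comparison asked what AngII plus L-NAME changed in vessels of AAV-GFP mice. Of 64 members with a mean of at least 1 FPKM, 23 were called (limma on log2(FPKM + 1), Benjamini-Hochberg adjusted p below 0.05 over 13082 genes), 19 lower and 4 higher in GFP-AL than in GFP-Veh. That is 35.9% of the tested members, where 28.6% of all genes tested were called (17.7% lower, 10.8% higher), so the whole family stood only somewhat above the background. The inducible cytosolic members carried much of it, with 7 of 9 lower, 1 higher and a median log2 fold change of -0.80, against -0.14 for all tested members and -0.09 for all genes tested. Constitutive cytosolic members followed with 8 of 20 lower and none higher, while 1 of 8 mitochondrial, 3 of 13 ER, 2 of 4 further small and 0 of 3 nuclear members were called. The lower constitutive members include Hspa1l and Hspa2, placed in that class although best known from testis. Leaving out the 3 libraries that stood apart, 18 members were lower and 6 higher, and of 13150 genes tested 1932 were lower and 1495 higher. With log2 depth as a covariate 13 members were lower and 1 higher (Dnajc10). Calls over all genes fell as well, to 1357 lower and 1025 higher. With that covariate Hspa8 (-0.39), Hspb1 (-0.58), Hspa1b (-1.22), Hsp90b1 (-0.48), Dnajb2 (-0.48), Dnajc7 (-0.34), Dnajb4 (0.45), Hspb6 (0.31) and Hspb7 (0.74) kept their direction but missed the threshold. With median-of-ratios scaling 17 members were lower and 5 higher, and of all genes 1717 were lower and 1833 higher, where 2321 and 1416 were so without it. Groups did not overlap for 15 members (23.4%), 11 of them lower, where 16.7% of all genes tested did not overlap (10.1% lower, 6.59% higher).

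**Figure D2:**
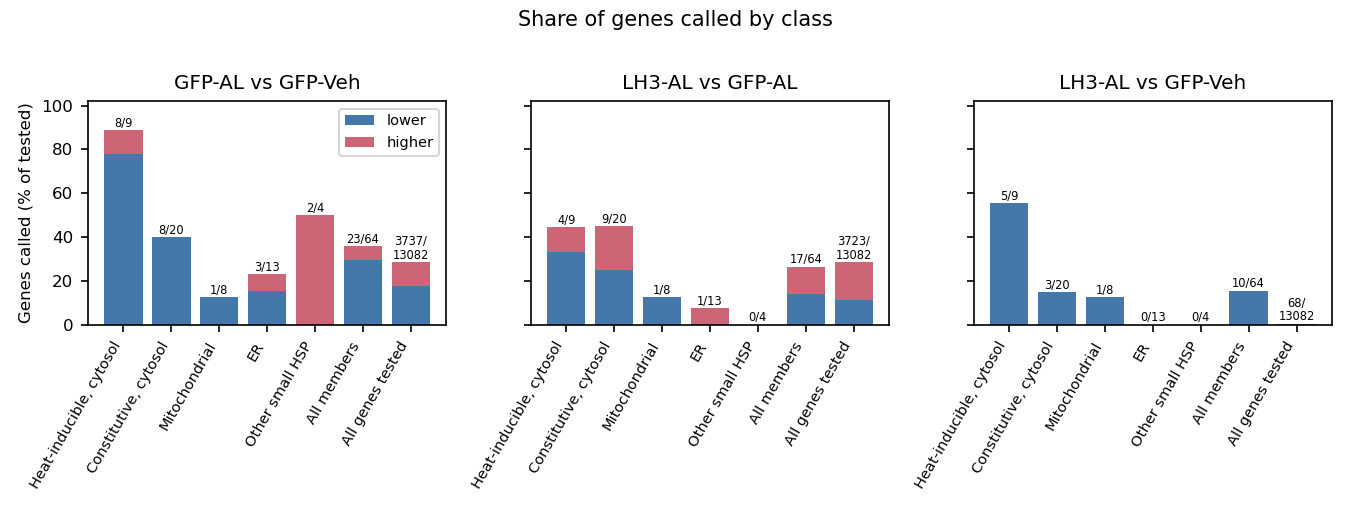
Share of tested genes called at adjusted p below 0.05 (limma), in percent, by class and comparison, with blue for lower, red for higher and the count over the number tested above each bar. The inducible cytosolic class shows 8 of 9, 4 of 9 and 5 of 9 in the 3 comparisons, while in LH3-AL against GFP-Veh only 68 of 13082 genes were called.

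Hspa1a and Hspa1b encode the inducible HSP70 proteins, single-exon genes 9951 bases apart (Hspa1a at chr17:34969190-34972156, Hspa1b at chr17:34956436-34959238, GRCm38, both on the minus strand). In GFP-Veh replicates 1 to 5, Hspa1a was at 15.2, 34.6, 40.3, 34.6 and 47.2 FPKM. In GFP-AL it was at 6.18, 21.7, 5.53, 6.97 and 24.5 FPKM. Replicates 2 and 5 of GFP-AL stood above the other 3 and above the lowest GFP-Veh library, so the groups overlapped, with a log2 fold change of -1.51 ± 0.40 (SE; adjusted p = 0.0117, limma). Hspa1b ran beside it, at 12.7, 21.6, 28.1, 25.8 and 34.9 FPKM in GFP-Veh and 5.37, 16.9, 7.21, 6.5 and 22.7 FPKM in GFP-AL, a log2 fold change of -1.14 ± 0.37 (adjusted p = 0.0312). The coding sequences of the 2 genes are identical at 1918 of 1926 aligned bases (99.6%), so the division of reads between them is uncertain, and their summed level is the safer value. That sum was 27.9 to 82.1 FPKM in GFP-Veh and 11.6 to 47.2 FPKM in GFP-AL. The call of Hspa1b was lost in 9 of 25 alternative settings, in 6 of them by leaving out 1 library (GFP-Veh 3, 4 or 5, or GFP-AL 1, 3 or 4), with adjusted p up to 0.09, and that of Hspa1a in none of 25.

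Hsph1, the inducible HSP110, and Dnaja1, a J-domain partner of cytosolic HSP70, were the inducible members with the largest fall and the smallest adjusted p. Hsph1 was at 11.5, 13.7, 12.1, 14.2 and 14.5 FPKM in GFP-Veh and at 3.27, 7.94, 1.71, 3.93 and 4.31 FPKM in GFP-AL. No GFP-AL library reached the lowest GFP-Veh value, and the log2 fold change was -1.54 ± 0.22 (adjusted p = 1.66e-04, limma). Dnaja1 was at 10.4, 14.1, 13.3, 11.2 and 12.3 FPKM in GFP-Veh and at 4.72, 6.06, 4.3, 5.09 and 5.37 FPKM in GFP-AL (-1.12 ± 0.10, adjusted p = 7.46e-06). The highest GFP-AL library of Dnaja1, replicate 2, lay well under the lowest GFP-Veh library, replicate 1. Exons of Dnaja1 overlap Smu1 on the opposite strand, and, with strandedness unstated, reads of the overlap cannot be told apart.

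Hsp90aa1, the inducible cytosolic HSP90, was at 48.4, 52.8, 36.5, 34 and 38.6 FPKM in GFP-Veh and at 21.9, 37.6, 13.5, 27.4 and 22.8 FPKM in GFP-AL. Its groups overlapped through GFP-AL replicate 2, and it fell by 0.80 ± 0.20 on the log2 scale (adjusted p = 0.00749, limma). Hspb1, the small heat shock protein HSP27, fell from 155 ± 33.3 to 96.7 ± 27.8 FPKM (SD, n = 5), a log2 fold change of -0.69 ± 0.19 (adjusted p = 0.0133), and was the most abundant inducible member per length. Dnaja4, a further J-domain partner of HSP70, was at 15.6, 14.1, 15.8, 16.2 and 16 FPKM in GFP-Veh and at 10.6, 6.82, 9.29, 11 and 9.56 FPKM in GFP-AL, without overlap (-0.67 ± 0.10, adjusted p = 3.27e-04). Dnajb1, the main J-domain partner of inducible HSP70 (HSP40), was not called, at 42.6 ± 6.66 and 33.6 ± 6.67 FPKM (-0.34 ± 0.14, adjusted p = 0.0737). It passed the threshold without GFP-Veh replicate 1 (-0.44, adjusted p = 0.023), without GFP-AL replicate 2 (-0.45, adjusted p = 0.0154), when the 3 libraries that stood apart were left out (then adjusted p = 0.0272) and with quantile normalization (adjusted p = 0.0347). Dnajb4, a relative of Dnajb1, went against the class, at 1.28 to 1.89 FPKM in GFP-Veh and 2.48 to 3.62 FPKM in GFP-AL (0.57 ± 0.15, adjusted p = 0.00931).

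**Figure D3:**
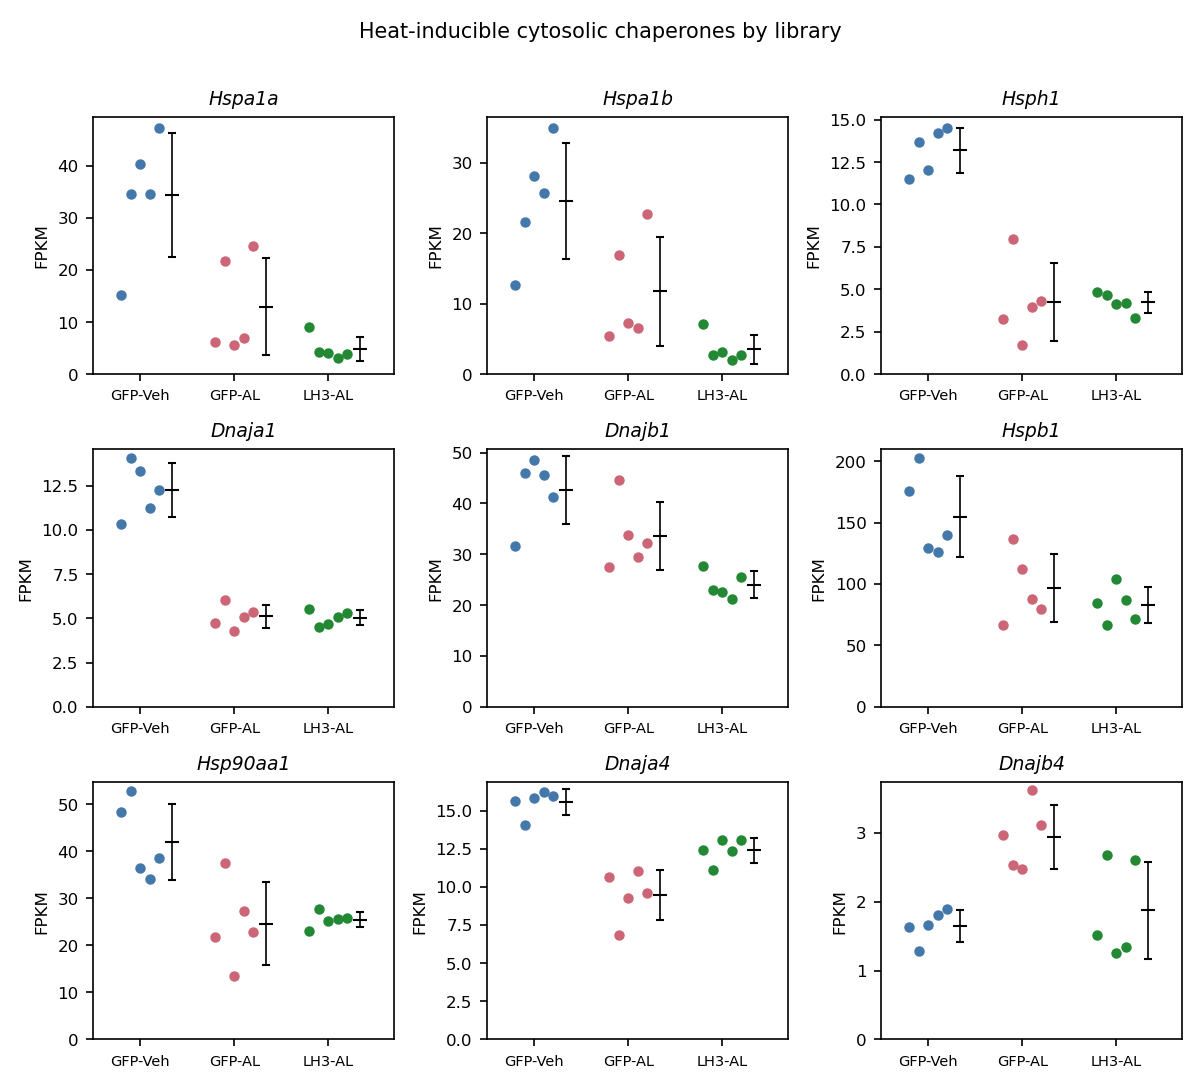
FPKM of the 9 heat-inducible cytosolic members in each of 15 libraries (points, replicates 1 to 5 from left to right in each group), with the group mean and SD beside them, on linear axes from 0. Dnaja1 and Hsph1 sit near 5 and 4 FPKM in both groups given AngII plus L-NAME, Hspa1a and Hspa1b are lowest in LH3-AL, and Dnajb4 is highest in GFP-AL.

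Among constitutive cytosolic members the 2 most abundant were lower. Hsp90ab1, the constitutive HSP90 and the member with the highest level per length, was at 304, 337, 287, 268 and 259 FPKM in GFP-Veh and at 148, 189, 162, 191 and 159 FPKM in GFP-AL. The groups did not overlap (-0.77 ± 0.10, adjusted p = 9.82e-05, limma). Hspa8, the constitutive HSP70 (HSC70), fell from 147 ± 21.8 to 100 ± 19.5 FPKM (-0.56 ± 0.14, adjusted p = 0.00925), with 1 overlapping GFP-AL library, replicate 2 at 123 FPKM. The other 6 lower members were the HSP70 relatives Hspa1l (-0.89), Hspa2 (-0.58) and Hspa12a (-0.56), the HSP110 relative Hspa4l (-0.70), Dnajb2 (-0.44) and Dnajc7 (-0.31). Exons of Dnajc7 overlap Cnp, a gene of oligodendrocytes, on the opposite strand, and the call of Dnajb2 was lost in 12 of 25 alternative settings (adjusted p up to 0.0937). Hspa12b, an HSP70 relative known from endothelium, was at 52.3 ± 9.68 and 45.3 ± 11.3 FPKM and was not called (adjusted p = 0.407), nor was Hspa4, the constitutive HSP110 (-0.19 ± 0.09, adjusted p = 0.126).

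Of 8 mitochondrial members, 1 was called, the chaperonin ring protein Hspd1. It was at 32, 41, 35.1, 34.9 and 34.3 FPKM in GFP-Veh and at 16.2, 21.4, 19.9, 20 and 19.4 FPKM in GFP-AL, without overlap (-0.84 ± 0.09, adjusted p = 2.85e-05, limma). Its pseudogene Hspd1-ps3 shares 99.0% of 1722 aligned bases and was at 11.04 and 6.14 FPKM on average (-0.76, adjusted p = 6.58e-05), so reads may be split between the copies. Hspe1, the lid of the same chaperonin, was at 15.1 to 27.3 FPKM in GFP-Veh and 10.7 to 20.5 FPKM in GFP-AL (-0.36 ± 0.17, adjusted p = 0.129). It passed the threshold without GFP-AL replicate 2 (-0.49, adjusted p = 0.0399). Without the 3 libraries that stood apart, 1 of them GFP-Veh replicate 2 with the 27.3 FPKM, it passed more clearly (-0.52 ± 0.09, adjusted p = 0.00151). The mitochondrial HSP70 Hspa9 was at 28.6 ± 2.26 and 28.2 ± 3.41 FPKM (-0.02 ± 0.10, adjusted p = 0.881), and its J-domain partner Dnaja3 at 10.9 ± 0.762 and 9.28 ± 0.674 FPKM (-0.21 ± 0.08, adjusted p = 0.0622).

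The ER members gave a mixed picture. Hspa5, the HSP70 of the ER, ranged from 45 to 68.6 FPKM in GFP-Veh and from 28.2 to 75 FPKM in GFP-AL, so the GFP-AL libraries spread on both sides of GFP-Veh (-0.22 ± 0.26, adjusted p = 0.561, limma). Hsp90b1, the HSP90 of the ER, fell from 131 ± 17.4 to 91.6 ± 18 FPKM (-0.52 ± 0.13, adjusted p = 0.00649). Dnajc10, a J-domain protein and disulfide reductase (ERdj5), rose from 24.6 to 29.4 FPKM in GFP-Veh to 30 to 41.7 FPKM in GFP-AL, without overlap (0.41 ± 0.12, adjusted p = 0.0151). Dnajb14, a membrane-bound J-domain protein, was lower (-0.31 ± 0.09, adjusted p = 0.0125), whereas Dnajb9, Dnajb11 and Dnajc3, J-domain partners of Hspa5, were at 50.8 and 57, 25.2 and 27.5, and 34.6 and 37.2 FPKM and were not called. Both called members of the further small class were muscle-associated and higher in GFP-AL. The small heat shock proteins Hspb1 (-0.69) and Cryab (-0.49), counted in other groups, were called lower. Hspb7 was at 1.38, 2.04, 1.02, 1.54 and 1.39 FPKM in GFP-Veh and 2.56, 4.41, 3.18, 4.38 and 2.55 FPKM in GFP-AL (0.82 ± 0.21, adjusted p = 0.00805), and Hspb6 was at 1.96 ± 0.423 and 3.16 ± 0.788 FPKM (0.48 ± 0.13, adjusted p = 0.0147). Hspb8, far more abundant at 42 and 44.2 FPKM, was not called. Exons of Hspb6 overlap Lin37 and Proser3 on the opposite strand and Gm38670 on the same strand. Those of the called Dnaja4, Hspa12a and Hsp90b1 also overlap other genes, and reads of such overlaps cannot be told apart.

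**Figure D4:**
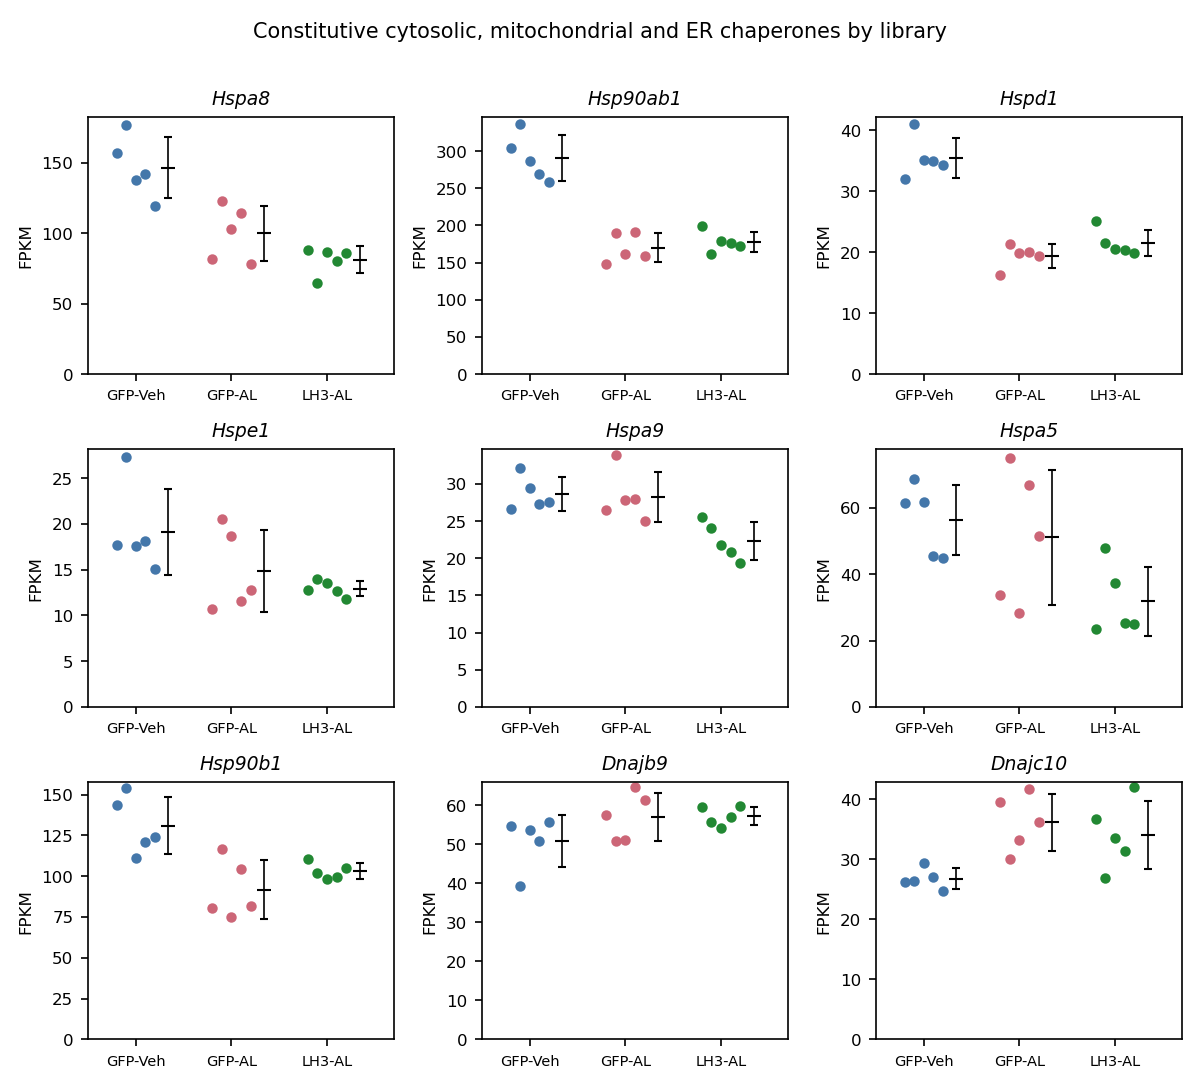
FPKM of constitutive cytosolic (Hspa8, Hsp90ab1), mitochondrial (Hspd1, Hspe1, Hspa9) and ER members (Hspa5, Hsp90b1, Dnajb9, Dnajc10) in each of 15 libraries (points, replicates 1 to 5 from left to right), with the group mean and SD, on linear axes from 0. Hsp90ab1 and Hspd1 are separated between GFP-Veh and the other groups, while Hspa5 spreads widely within GFP-AL, from 28.2 to 75 FPKM.

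Several lists of other cell types moved in the same comparison. Oligodendrocyte markers were lower at 5 of 6 genes, with summed levels of 351 to 553 FPKM in GFP-Veh and 142 to 321 in GFP-AL, and choroid plexus and ependymal markers at 5 of 6 (3633 to 9123 and 1963 to 3084 FPKM). Red cell markers were higher at 5 of 5 (1194 to 2995 and 3056 to 15590 FPKM), microglia and macrophage markers at 3 of 7 (48.8 to 88.3 and 106 to 136 FPKM) and neutrophil markers at 3 of 5 tested (72.8 to 215 and 101 to 887 FPKM). No marker was at 0 in any library, and the lowest value was 0.0385 FPKM, for Ly6g. Endothelial markers went both ways (3 higher and 3 lower of 10), and so did astrocyte markers (Gfap higher, Aqp4 and Slc1a2 lower, of 6). Pericyte markers were lower at 2 of 6, smooth muscle markers at 1 of 6 (Myh11), and 0 of 7 neuron markers and 0 of 5 fibroblast markers were called. The part of these shifts in the chaperone changes was not tested.

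The third group was compared with GFP-Veh to see which members differed when AAV-LH3 and AngII plus L-NAME were both given. In LH3-AL 10 members were lower and none higher, 15.6% of the 64 tested members, where 0.520% of all genes tested were called (0.375% lower, 0.145% higher). In all 49 genes were lower, and the 10 members made up 20.4% of them. Both totals moved with the libraries used: leaving out 1 library gave 27 (without GFP-Veh replicate 4 or LH3-AL replicate 3) to 110 calls (without GFP-AL replicate 2) over all genes and 9 to 11 lower members. The total was also more than 1.5 times smaller without GFP-Veh replicate 1, 3 or 5 (40, 29 and 33) or LH3-AL replicate 2, 4 or 5 (44, 30 and 40). With only the 2 groups compared 12 of 113 lower genes were members, and without the 3 libraries that stood apart 14 of 88 were. The 10 lower members with all libraries were the inducible Hspa1a, Hspa1b, Hsph1, Dnaja1 and Dnajb1, the constitutive Hspa8, Hsp90ab1 and Hspa1l, the mitochondrial Hspd1 and the pseudogene Hspd1-ps3. Reads may be shared between Hspa1a and Hspa1b (99.6% of aligned bases identical), Hspa1a and Hspa1l (83.6%), and Hspd1 and Hspd1-ps3 (99.0%). The 10 calls may therefore hold fewer separate signals, which would raise both shares. No ER, nuclear or small member was called. Without the 3 libraries that stood apart Hspb1, Hsp90aa1, Hspe1 (-0.38, adjusted p = 0.0353, limma) and Dnaja4 (-0.34, adjusted p = 0.0265) were lower as well. Ordered by log2 fold change over all 13082 genes, Hspa1a and Hspa1b were the lowest and next lowest, Hspa1l the 6th and Hsph1 the 11th. The log2(FPKM + 1) scale understates falls of low genes, so this order favours more abundant ones. The median over the inducible class was -0.89, over all tested members -0.11 and over all genes tested -0.01. Both this comparison and the first one use the GFP-Veh libraries, so they are not independent.

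In LH3-AL replicates 1 to 5, Hspa1a was at 8.99, 4.22, 4.12, 3.03 and 3.92 FPKM, below every GFP-Veh library (15.2 to 47.2 FPKM). The log2 fold change was -2.58 ± 0.40 (adjusted p = 0.00871, limma). Hspa1b was at 7.19, 2.67, 3.08, 2.05 and 2.73 FPKM, again without overlap with GFP-Veh (-2.52 ± 0.37, adjusted p = 0.00582). Their sum was 5.09 to 16.2 FPKM in LH3-AL. Hspa1l, an HSP70 gene known mainly from testis, is read away from Hspa1a, with 546 bases between their annotated starts. Hspa1l was high in the same libraries, at a lower level. It was at 3.56, 5.94, 7.32, 5.99 and 8.42 FPKM in GFP-Veh, at 1.78, 4.68, 1.36, 2.38 and 5.37 FPKM in GFP-AL and at 2.1, 1.09, 1.04, 1.1 and 1.01 FPKM in LH3-AL. For all 3 genes the highest library was replicate 5 in GFP-Veh and GFP-AL and replicate 1 in LH3-AL. Hspa1l fell by 1.66 on the log2 scale against GFP-Veh (adjusted p = 0.00871), and 83.6% of its aligned coding bases match Hspa1a, so some of its reads may belong to the neighbour.

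Hsph1 and Dnaja1 stayed at about their GFP-AL level in LH3-AL. Hsph1 was at 4.86, 4.68, 4.16, 4.22 and 3.29 FPKM (-1.44 ± 0.22 against GFP-Veh, adjusted p = 0.0082, limma). Dnaja1 was at 5.54, 4.52, 4.69, 5.07 and 5.33 FPKM (-1.13 ± 0.10, adjusted p = 9.33e-05). Neither overlapped GFP-Veh. Dnajb1, at 31.7, 45.9, 48.6, 45.5 and 41.3 FPKM in GFP-Veh, was at 27.8, 22.9, 22.6, 21.3 and 25.6 FPKM in LH3-AL, also without overlap (-0.79 ± 0.14, adjusted p = 0.0148). This call of Dnajb1 was lost in 5 of 25 alternative settings, 4 of them without 1 library (GFP-Veh replicate 3 or 4, or LH3-AL replicate 3 or 4). Hspb1 (-0.89 ± 0.19, adjusted p = 0.0512) and Hsp90aa1 (-0.68 ± 0.20, adjusted p = 0.21) missed the threshold although their LH3-AL libraries, 66.9 to 104 and 23.1 to 27.8 FPKM, lay below all GFP-Veh libraries, 126 to 203 and 34 to 52.8 FPKM. Hspb1 passed it in 7 alternative settings, among them without GFP-AL replicate 1, 2 or 3 (adjusted p = 0.0358, 0.0202 and 0.0492), and Hsp90aa1 in 2, with only the 2 groups compared (0.0235) and without the 3 libraries that stood apart (0.018).

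Of the constitutive and mitochondrial members, Hsp90ab1 was at 199, 162, 179, 176 and 173 FPKM in LH3-AL (-0.71 ± 0.10 against GFP-Veh, adjusted p = 0.00582, limma). Hspa8 was at 88.1, 64.8, 86.7, 80.6 and 85.9 FPKM (-0.84 ± 0.14, adjusted p = 0.0148), and Hspd1 at 25.2, 21.4, 20.4, 20.4 and 19.9 FPKM (-0.70 ± 0.09, adjusted p = 0.00444). All 3 lay below every GFP-Veh library. The groups did not overlap for 19 tested members (29.7%), 18 of them lower, where 4.67% of all genes tested did not overlap (2.61% lower). Hspa5, at 23.6 to 47.8 FPKM in LH3-AL, had a log2 fold change of similar size to Hspa8 but was not called (-0.84 ± 0.26, adjusted p = 0.262).

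Depth differed between these groups, with a median of 14.3 M fragments in GFP-Veh, where replicate 5 held 29.8 M fragments, and of 28.2 M fragments in LH3-AL. With log2 depth as a covariate the number of lower members dropped from 10 to 1, Dnaja1 (-1.14, adjusted p = 0.0101), and 4 genes in all were called. Hspa1a then had a log2 fold change of -2.75 (adjusted p = 0.172), Hspa1b of -2.61 (0.149), Hsph1 of -1.55 (0.149), Hspd1 of -0.61 (0.213) and Hsp90ab1 of -0.59 (0.277). GFP-Veh replicate 5, the deepest of its group by this estimate, had the highest Hspa1a, Hspa1b and Hsph1 of all 15 libraries. It had the lowest Hspa8 (119 FPKM) and Hsp90ab1 (259 FPKM) of its group. LH3-AL replicate 1, the shallowest of its group at an estimated 18.0 M fragments, had the highest Hspa1a, Hsp90ab1, Hspa8, Hspd1, Dnaja1, Dnajb1 and Hsph1 in that group. The part of depth in these differences was not tested beyond this covariate. Of the cell type markers, 2 of 5 red cell genes were called higher in LH3-AL than in GFP-Veh and no other marker was called. Oligodendrocyte sums ran from 231 to 599 FPKM in LH3-AL and overlapped GFP-Veh.

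**Figure D5:**
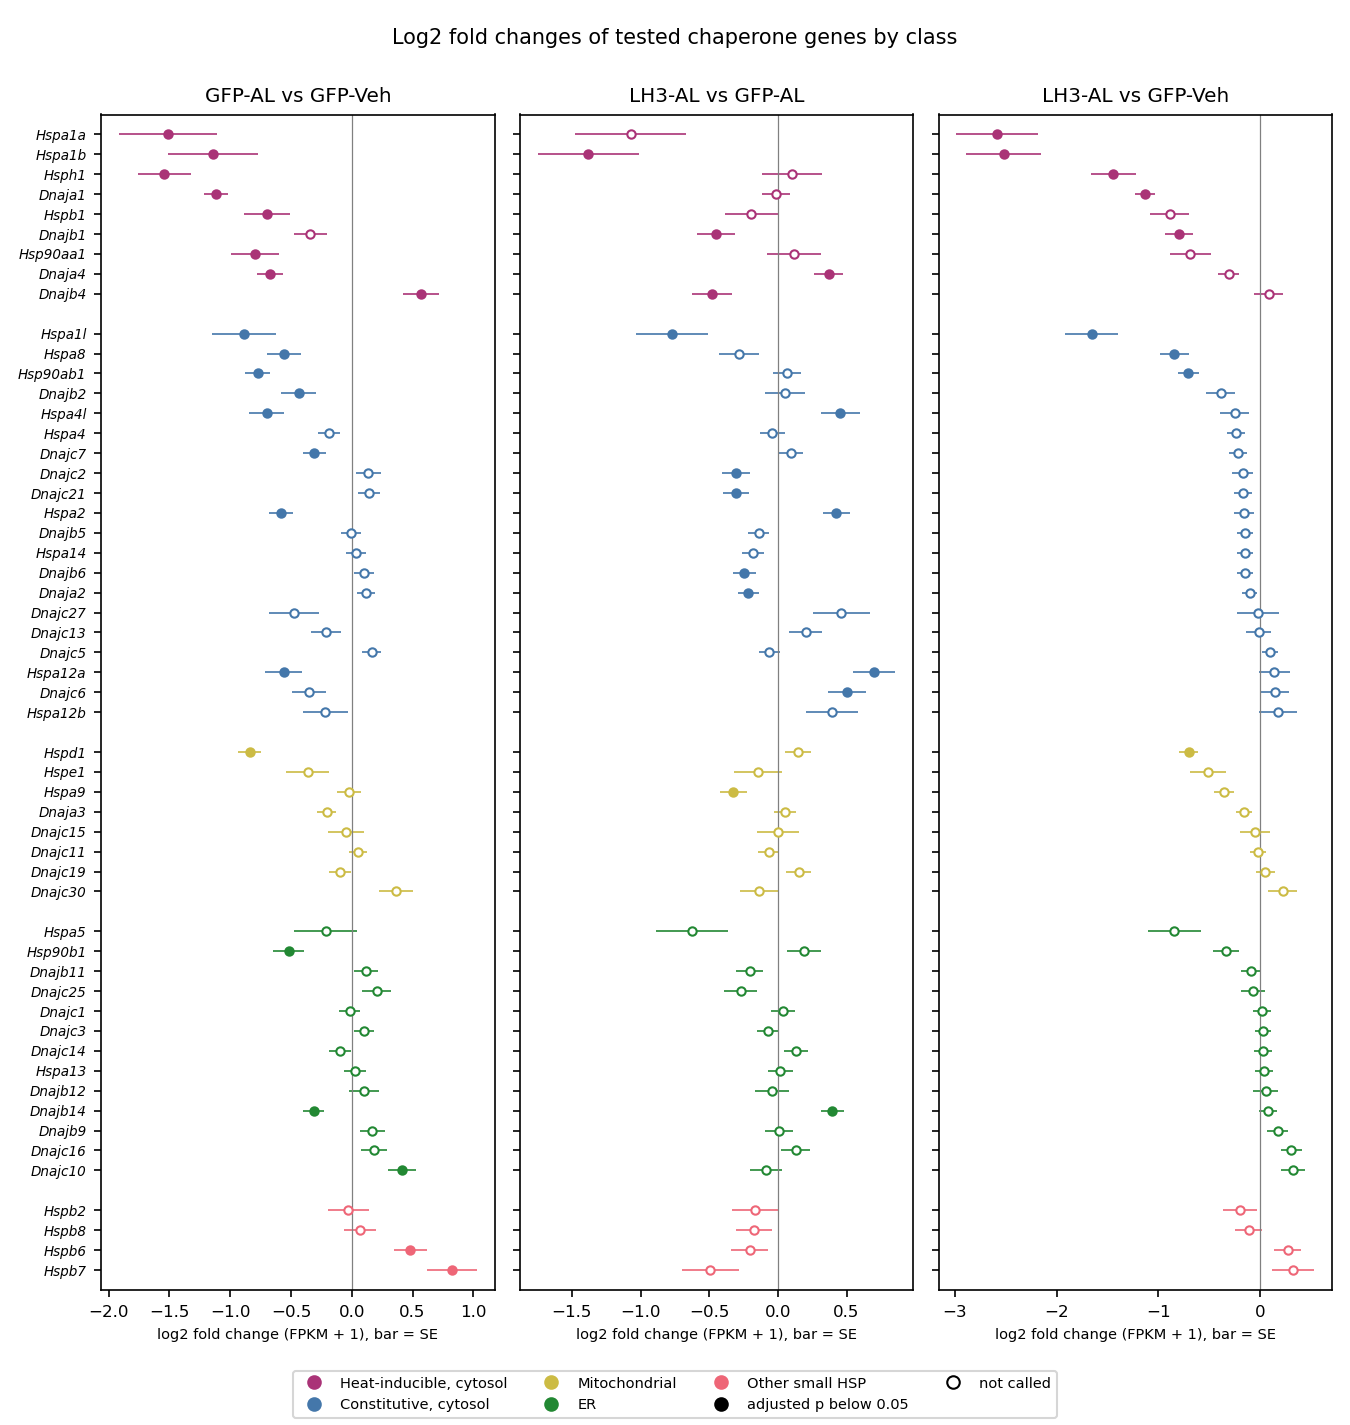
Log2 fold changes of log2(FPKM + 1) with SE (bars) in the 3 comparisons, for tested members of the inducible (purple), constitutive (blue), mitochondrial (yellow), ER (green) and other small heat shock protein (pink) classes, ordered within a class by LH3-AL against GFP-Veh; filled points have adjusted p below 0.05 (limma), and each panel has its own horizontal scale. Filled points in the right panel are all at negative values, and lie among inducible and constitutive members and Hspd1.

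The last comparison, LH3-AL against GFP-AL, asked what AAV-LH3 changed under the same agents. Here 17 of 64 tested members were called, 8 higher and 9 lower in LH3-AL. That share, 26.6%, is close to the 28.5% of all genes tested that were called (17.0% higher, 11.4% lower), and the median log2 fold change of the members was -0.01, against 0.08 for all genes tested. The groups did not overlap for 9 members (14.1%), against 19.4% of all genes tested. The inducible Hspa1b, Dnajb1 and Dnajb4 were among the lower members. The higher ones included the inducible Dnaja4, the HSP70 relatives Hspa2 and Hspa12a and the HSP110 relative Hspa4l. With median-of-ratios scaling 6 members were higher and 12 lower, and of all genes 1787 were higher and 1885 lower, where 2227 and 1496 were so without it. Without the 3 libraries that stood apart, 6 members were higher and 4 lower, and of 13150 genes tested 1503 were higher and 1256 lower. The lower count rested on few libraries, being 3 without GFP-AL replicate 2, 5 without GFP-AL replicate 4 or without LH3-AL replicate 2 or 3, and 2 without LH3-AL replicate 4. Over all genes 1109 to 1544 were lower in these settings. The higher count was 5 without GFP-AL replicate 3, LH3-AL replicate 1 or LH3-AL replicate 4, where 1485 to 1582 of all genes were higher.

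Hspa1b was lower in LH3-AL than in GFP-AL (-1.38 ± 0.37, adjusted p = 0.0132, limma), a call lost when the 3 libraries that stood apart were left out (then adjusted p = 0.0595). For Hspa1a the difference was -1.07 ± 0.40 (adjusted p = 0.0586), and it passed the threshold with median-of-ratios scaling (-1.14, adjusted p = 0.0433) and with quantile normalization (-1.11, adjusted p = 0.049). It also passed without GFP-Veh replicate 1, GFP-AL replicate 1, 3 or 4, or LH3-AL replicate 1 (adjusted p from 0.0378 to 0.0485). In both genes LH3-AL replicate 1 lay above the lowest GFP-AL library, and the other 4 LH3-AL libraries lay below all GFP-AL libraries. Dnajb1 was lower (-0.45 ± 0.14, adjusted p = 0.0237), and Dnajb4, higher in GFP-AL, was at 1.51, 2.67, 1.25, 1.33 and 2.6 FPKM in LH3-AL (-0.48 ± 0.15, adjusted p = 0.024). Hsph1 and Dnaja1 differed little, by 0.10 ± 0.22 (adjusted p = 0.751) and -0.01 ± 0.10 (adjusted p = 0.925). Of the remaining lower members Hspa9 fell from 28.2 ± 3.41 to 22.3 ± 2.53 FPKM (-0.33 ± 0.10, adjusted p = 0.0242), and Hspa1l, Dnaja2, Dnajb6, Dnajc2 and Dnajc21 had log2 fold changes between -0.77 and -0.21. Most of these calls were unstable. Dnaja2, a constitutive J-domain partner of HSP70, lost its call in 18 of 25 alternative settings (adjusted p up to 0.278), Dnajb6 in 9 of 25, Hspa1l in 9 of 24, Dnajc2 in 7 of 24, Hspa9 in 5 of 25, Dnajb4 in 5 of 24, Dnajb1 in 4 of 25 and Dnajc21 in 2 of 25. Each of these was lost without at least 1 single library, LH3-AL replicate 4 for all but Dnajc21.

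Among the higher members, Hspa12a, a distant HSP70 relative, was at 10, 8.24, 10.4, 9.12 and 10.3 FPKM in GFP-Veh. It was at 8.66, 6.1, 3.7, 7.63 and 5.85 FPKM in GFP-AL and at 11.8, 11.9, 9.36, 10.7 and 9.87 FPKM in LH3-AL, which did not overlap GFP-AL (0.70 ± 0.15, adjusted p = 0.00424, limma). Hspa2, an HSP70 best known from spermatogenesis, was at 12.7, 15.8, 16.2, 15.4 and 13.5 FPKM in GFP-Veh, 8.4, 8.62, 10.2, 11.7 and 8.66 FPKM in GFP-AL and 12.5, 14.1, 12.7, 12.8 and 13.1 FPKM in LH3-AL (0.43 ± 0.10 against GFP-AL, adjusted p = 0.00582). All LH3-AL libraries of Hspa2 lay above all GFP-AL libraries, and 4 of 5 lay within the range of GFP-Veh. Dnajb14 was at 3.58 to 3.99 FPKM in GFP-Veh, 2.35 to 3.29 FPKM in GFP-AL and 3.79 to 4.39 FPKM in LH3-AL (0.40 ± 0.09, adjusted p = 0.00386). Dnaja4 was at 12.4, 11.1, 13.1, 12.3 and 13.1 FPKM in LH3-AL, above every GFP-AL and below every GFP-Veh library (0.37 ± 0.10 against GFP-AL, adjusted p = 0.0178; -0.31 ± 0.10 against GFP-Veh, adjusted p = 0.339). With median-of-ratios scaling Dnaja4 missed the threshold (adjusted p = 0.054).

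The other 4 higher members were Hspa4l (0.46 ± 0.14, adjusted p = 0.0269, limma), Dnajc6, the auxilin that uncoats clathrin vesicles in neurons (0.50 ± 0.14, adjusted p = 0.0163), Dnajc18 (0.37 ± 0.12, adjusted p = 0.0343) and Hspb11, an intraflagellar transport protein named as a small heat shock protein (0.32 ± 0.11, adjusted p = 0.0382). The call of Hspb11 was lost in 12 of 24 alternative settings (adjusted p up to 0.345), that of Dnajc18 in 7 of 25 (up to 0.0971) and that of Hspa4l in 4 of 24 (up to 0.0658), each of them without LH3-AL replicate 1, 2 or 4 among others. GFP-AL enters this comparison and the first one, so the falls and rises of these genes are not independent. Against GFP-Veh none of these 8 members was called in LH3-AL. Oligodendrocyte markers were higher in LH3-AL than in GFP-AL at 3 of 6 genes and choroid plexus and ependymal markers at 2 of 6, and neutrophil markers were lower at 5 of 5 tested and microglia and macrophage markers at 4 of 7. Endothelial (1 higher, 3 lower of 10) and astrocyte markers (1 and 1 of 6) went both ways, and 1 of 6 pericyte and 1 of 5 fibroblast markers were higher. Their part in these changes was not tested.

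Co-chaperones and regulators outside the naming rule were taken from a list of 55 chaperone-network genes, 53 of them tested. In GFP-AL against GFP-Veh 11 were lower and 1 higher, and 8 of the 11 lower were HSP90 co-chaperones, a group with 18 genes. The 12 called genes are 22.6% of the list, below the 28.6% of all genes tested. Chordc1, a zinc-binding HSP90 partner, fell from 39.4 ± 3.53 to 14.4 ± 4.12 FPKM (SD, n = 5; -1.43 ± 0.15, adjusted p = 2.13e-05, limma). Stip1 (HOP), which joins HSP70 to HSP90, fell from 70.2 ± 4.94 to 39.4 ± 5.32 FPKM (-0.82 ± 0.09, adjusted p = 2.73e-05), and Ahsa2, an activator of the HSP90 ATPase, fell from 5.09 ± 0.512 to 2.498 ± 0.262 FPKM (-0.80 ± 0.10). Fkbp4 (FKBP52), a partner of steroid receptors, fell from 48.4 ± 13.1 to 18.6 ± 4.69 FPKM (-1.33 ± 0.19, adjusted p = 1.80e-04). It and the next gene are named here after their values were seen. The gene that rose was Fkbp5 (FKBP51), the antagonist of Fkbp4 in the receptor complex and a glucocorticoid target, from 1.44 to 6.59 FPKM in GFP-Veh to 14.4 to 23.9 FPKM in GFP-AL (2.30 ± 0.44, adjusted p = 0.00138). Hsf1 itself was at 41 to 46.9 FPKM in GFP-Veh and 20.5 to 33.4 FPKM in GFP-AL (-0.73 ± 0.11, adjusted p = 3.21e-04). The other 2 lower genes were the small heat shock protein Cryab (-0.49) and the mitochondrial HSP90 Trap1 (-0.50). None of the 11 nucleotide exchange factors, 8 subunits of the cytosolic chaperonin TRiC or 6 prefoldin subunits was called in that comparison.

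In LH3-AL against GFP-Veh 7 network genes were lower and none higher, 5 of 18 HSP90 co-chaperones and 2 of 8 TRiC subunits. That is 13.2% of the list, where 0.520% of all genes tested were called and 0.375% were lower. Stip1 was at 41.4 ± 1.46 FPKM in LH3-AL (-0.75 ± 0.09, adjusted p = 0.00196, limma) and Ptges3 (p23) at 17.8 ± 0.813, from 30.6 ± 5.44 FPKM in GFP-Veh (-0.73 ± 0.11, adjusted p = 0.00807). Ahsa2 was lower as well (-0.72 ± 0.10, adjusted p = 0.00561), as were the TRiC subunits Cct4 (-0.51 ± 0.09, adjusted p = 0.0183) and Cct6a (-0.45 ± 0.10, adjusted p = 0.0471). In LH3-AL against GFP-AL 5 network genes were lower, 9.43% of the list, where 11.4% of all genes tested were lower. Hsf1 rose to 35.1 ± 3.3 FPKM (0.41 ± 0.11, adjusted p = 0.016), Chordc1 and Trap1 were also higher, and 4 of 8 TRiC subunits were lower, among them Cct2 (-0.44 ± 0.09, adjusted p = 0.00186), Tcp1 (-0.31) and Cct4 (-0.29). Fkbp5 was lower too (-1.30 ± 0.44, adjusted p = 0.0364), but its LH3-AL libraries were split, with 2.33 and 1.85 FPKM in replicates 1 and 2 and 14.1, 12.8 and 9.11 FPKM in replicates 3 to 5.

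The 12 members below a mean of 1 FPKM were Dnajb3, Dnajb7, Dnajb13, Hspb9 and Dnajc5b, known from testis or cilia, Hspb3, Dnajc22, Dnajc28 and the pseudogenes Hspa9-ps1, Hspd1-ps4, Hspe1-ps6 and Dnaja1-ps. Their means over 15 libraries ran from 0.025 FPKM (Hspa9-ps1) to 0.869 FPKM (Dnajc28), just under the filter, and Dnajc12 at 1.498 FPKM was the first above it. Members tested but not called in any comparison included Dnajc8, Dnajc9 and Dnajc17 in the nucleus and Dnajc11, Dnajc15, Dnajc19 and Dnajc30 in mitochondria. Their log2 fold changes lay between -0.14 and 0.36. Under some alternative settings Dnajc11 passed the threshold in LH3-AL against GFP-AL and Dnajc30 in GFP-AL against GFP-Veh.

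Members also appear in the authors' deposited tables of differential genes, whose entries all have an absolute log2 fold change above 1. In the authors' deposited table for GFP-AL against GFP-Veh, Hsph1 is listed at -1.64, Hspa1a at -1.40, Dnaja1 at -1.27, Hspa1b at -1.07, Dnajb13 at -1.56 and Hspb7 at 1.21. The authors' deposited table named for LH3-AL against GFP-Veh lists Hspa1b at -1.74, Hspa1a at -1.43 and Hspa1l at -1.31. From the FPKM table, the log2 ratios of means for these 3 genes are -1.73, -1.42 and -1.29 for LH3-AL against GFP-AL, and -2.79, -2.82 and -2.29 for LH3-AL against GFP-Veh. Over its 1746 genes, the authors' deposited table of that name had the sign of LH3-AL against GFP-AL at 1746 and of LH3-AL against GFP-Veh at 1027, so its values were read here as LH3-AL against GFP-AL.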

How the data were processed

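RNA of isolated cerebral vessels was sequenced in 15 libraries, 5 in each of 3 groups set by the sample labels. STAR 2.5.1b and the build mm8 are named, per the submitters' processing notes; how reads were counted, on which strand and with which annotation is not stated there. The authors deposited a table of 22557 genes named as FPKM, in which 5.99% of values lie below 0 (lowest -0.465), which FPKM cannot do, and these were set to 0. The authors also deposited tables of log2 fold changes with p-values and q-values, used only where named. Rows with the same symbol were summed (31 symbols). Library depth was estimated from the step that 1 fragment gives in low values, but too few values came out whole (within 0.1 read) for a count test.

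limma 3.58.1 (R 4.3.3) was fitted to log2(FPKM + 1) of 13082 genes whose mean reached 1 FPKM, in 1 fit to the 15 libraries with group means and a trended empirical Bayes prior. A gene was called at a Benjamini-Hochberg adjusted p below 0.05 over all genes in a comparison, and fold changes on this scale understate those of low genes. The scripts were tested on simulated data. Members, classes, marker and network lists were chosen with earlier results of these data known. Named members were all inducible ones, key partners in each compartment, the 10 called members with the smallest p in each comparison, called members against the majority, and the most abundant of each class, with up to 3 called network genes per group and comparison. Positions are from GENCODE M21 (GRCm38) and promoters from RefSeq (GRCm38.p6); the deposited tables hold no coordinates, and 22419 of their gene identifiers were found in GENCODE M21. Sequences were aligned with Biopython 1.88 (Python 3.11.15). Alternatives were other scalings, pseudocounts, filters, covariates and left-out libraries. The result of 1 network gene is not reported here.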

Additional observations from a re-analysis of the deposited data

Results flagged for a closer look

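In 12 of 120 groups with 5 libraries (40 named members in 3 groups, 10.0%), 1 library stood apart by Dixon's criterion, where chance gives about 1 in 20. The HSP70 genes Hspa1a, Hspa1b and Hspa1l were highest in LH3-AL replicate 1, at 8.99, 7.19 and 2.1 FPKM, against 3.03 to 4.22, 2.05 to 3.08 and 1.01 to 1.1 FPKM in the other LH3-AL libraries. The same library was lowest for Hspb6, at 2.08 FPKM against 2.64 to 2.71. LH3-AL replicate 2 was highest for Dnajc18 (16.1 FPKM against 13.1 to 13.9) and Dnajc4 (22.9 against 16.4 to 18.1) and lowest for Dnajc3 (29.4 against 36.1 to 38.0) and Dnajc21 (4.78 against 5.2 to 5.33). LH3-AL replicate 5 was lowest for Hspd1-ps3 (6.59 against 7.06 to 7.18). In GFP-Veh, replicate 2 was highest for Hspe1 (27.3 against 15.1 to 18.1) and lowest for Dnaja4 (14.1 against 15.6 to 16.2). In GFP-AL, replicate 4 was highest for Hspb11 (1.92 against 1.27 to 1.4).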

How the results depend on the processing

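No value changed sign among calls. Of the single values recomputed for members, 135 missed the threshold under an alternative where they had passed it. Another 52 passed it only under an alternative, and 4556 kept their result. The counts of members (for GFP-AL against GFP-Veh 4 higher and 19 lower, for LH3-AL against GFP-AL 8 and 9, for LH3-AL against GFP-Veh 0 and 10) moved by over 1.5 times in these settings. With a mean of at least 5 FPKM, which leaves 45 members, 1 was higher in GFP-AL against GFP-Veh and 4 in LH3-AL against GFP-AL. Of all 7382 genes then tested 962 and 1051 were. With only the 2 groups compared, 5 members were lower in LH3-AL against GFP-AL, and without the 3 libraries that stood apart 4 were. Over all genes 1327 and 1256 were. With log2 depth as a covariate 1 member was higher in GFP-AL against GFP-Veh and 1 was lower in LH3-AL against GFP-Veh, where 1025 and 4 of all genes were. Leaving out 1 library at a time gave 4 to 5 higher and 16 to 21 lower in GFP-AL against GFP-Veh, 5 to 8 and 2 to 11 in LH3-AL against GFP-AL, while LH3-AL against GFP-Veh gave 0 to 0 and 9 to 11. Apart from the smaller samples and gene lists these settings create, the cause was not tested. Over all genes, LH3-AL against GFP-Veh gave 68 calls, and 176 with only the 2 groups compared, 156 without the 3 libraries that stood apart, 31 with the replicate block and 4 with depth. No clear pairing by replicate number was seen. Of 15 pairs with the same number the deviations correlated from -0.261 to 0.286, 5 over 0.1, and 8 of 30 best matches had the same number. With 5 libraries in each group this check cannot exclude pairing or a shared batch. With the replicate block 4 members were higher and 18 lower in GFP-AL against GFP-Veh, 8 and 8 in LH3-AL against GFP-AL, while LH3-AL against GFP-Veh gave 0 and 8. Depth limits members near 1 FPKM, and estimated depth differs between GFP-Veh and LH3-AL.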
